A study of Sus scrofa with 16 samples.

Results

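DNA methylation at an intronic window of SMAD2 was examined in hearts of Tibetan and Yorkshire pigs, together with the 100 kb of chromosome 1 on each side of it. The window ran from 106962501 to 106963000 on chromosome 1 (build Sscrofa10.2), and the study's table of differentially methylated regions (DMRs) placed it in an intron of SMAD2 and listed it for highland pigs. The 200.5 kb from 106862501 to 107063000 overlapped 95 of the 1159046 methylation peaks of the series. Of these, 15 of 280678 belonged to Tibetan highland pigs (TH), 22 of 287224 to Yorkshire highland pigs (YH), 25 of 259066 to Tibetan lowland pigs (TL) and 33 of 332078 to Yorkshire lowland pigs (YL). The window had been chosen from the reads of TH against YH, so the difference between these groups at the window is given here as a description and was not tested.

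The study used methylated DNA immunoprecipitation sequencing (MeDIP-seq), in which an antibody pulls down fragments with methylated cytosines and the sequenced fragments pile up as peaks. The 16 pigs were castrated males of 6 months, with 4 animals in each group, and heart tissue was sampled in all of them. YH and TL descended from herds moved to the place where they were raised, so elevation in this design also covers housing and herd history, and these cannot be told apart. Heart tissue holds several cell types, so more methylation per cell and a larger share of cells with methylation cannot be told apart, and the peaks hold no marker by which the tissue label could be checked.

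SMAD2 is a receptor-regulated SMAD protein that carries signals of transforming growth factor beta (TGF-beta), activin and Nodal to the nucleus. The activated type I receptor phosphorylates it, and it then binds SMAD4 and acts with other factors on target genes. In the heart this pathway is known for its roles in development and in fibrosis. Methylated cytosines are common in the introns of mammalian genes, and a peak inside an intron does not by itself give the expression of the gene. In the pig gene order of a later assembly (Sscrofa11.1, used for names only), SMAD2 lies between SKOR2 and ZBTB7C, and SMAD7, an inhibitor of the same pathway, is the third gene on the side of ZBTB7C.

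Each group had 1 list of peaks, and at most 4 peaks of a list lay over any base. A list was therefore read as the joined peaks of its 4 animals, which it does not name. The TL, YL and YH lists fell into 4 runs of sorted rows on each of 19 chromosomes, with 0 overlapping peaks within a run. Each run was read as 1 animal. Runs of equal number on different chromosomes were taken as the same animal, which the lists do not show. The TH list was ordered by peak length and gave no runs. A peak has a number of tags, which are the sequenced fragments under it, and a fold enrichment over the background that the peak caller expected. The median peak of a list held between 25 tags in TL and 30 tags in YL, and the reads behind each animal were not analysed here. P-values measure only the spread between these animals.

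All 8 Yorkshire pigs had a peak over the middle of the SMAD2 window, whereas 2 of 8 Tibetan pigs did. At high elevation 1 of 4 TH and 4 of 4 YH animals had one, and at low elevation 1 of 4 TL and 4 of 4 YL animals, so the numbers were equal at both elevations. These 10 peaks formed 1 cluster from 106961823 to 106963383, which was 1561 bp long. No other cluster of the 200.5 kb was present in 4 of 4 animals of more than 1 group.

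**Figure D1:**
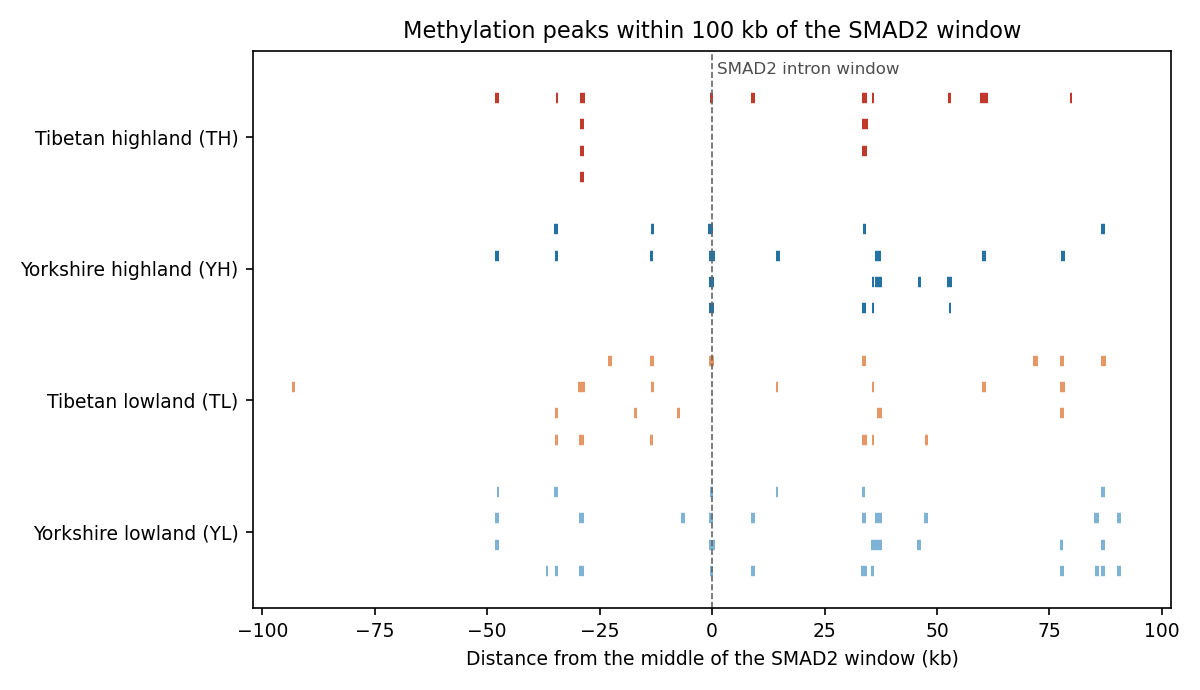
Peaks of the 4 groups along the 200.5 kb, with the distance from the middle of the SMAD2 window in kb on the x axis and 1 line per peak. In YH, TL and YL each row is 1 animal, and in TH peaks are stacked where they overlap. At the window 4 YH and 4 YL peaks stand against 1 TH and 1 TL peak, and TH has its only stack of 4 peaks 29.0 kb before it.

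The peaks at the window differed little between the breeds where they were present. In YH the 4 peaks held 22, 30, 32 and 24 tags, with fold enrichments of 12.01, 9.49, 10.33 and 9.75. In YL they held 16, 23, 27 and 24 tags, with fold enrichments of 8.22, 10.32, 9.05 and 8.74. The TH peak held 20 tags at a fold enrichment of 10.9, and the TL peak held 20 tags at 8.86.

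The Yorkshire peaks had a median of 24 tags (16 to 32) and a median fold enrichment of 9.62 (8.22 to 12.01), and both Tibetan peaks lay inside these ranges. Yorkshire and Tibetan pigs thus overlapped in the strength of the peaks that were called, and the groups were set apart by how many animals had one. YH had the higher medians of the Yorkshire groups, with 27 tags against 23.5 in YL and a fold enrichment of 10.04 against 8.895, but the ranges of YH and YL overlapped in both measures. Within their own lists the 10 peaks ranked between the 7.65 and 55.1 percentiles for tags and between the 60.7 and 94.9 percentiles for fold enrichment. They therefore held few to medium numbers of tags over a low background. A peak that was not called has no value in the lists, so methylation below the calling limit in the other 6 Tibetan pigs is unknown.

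**Figure D2:**
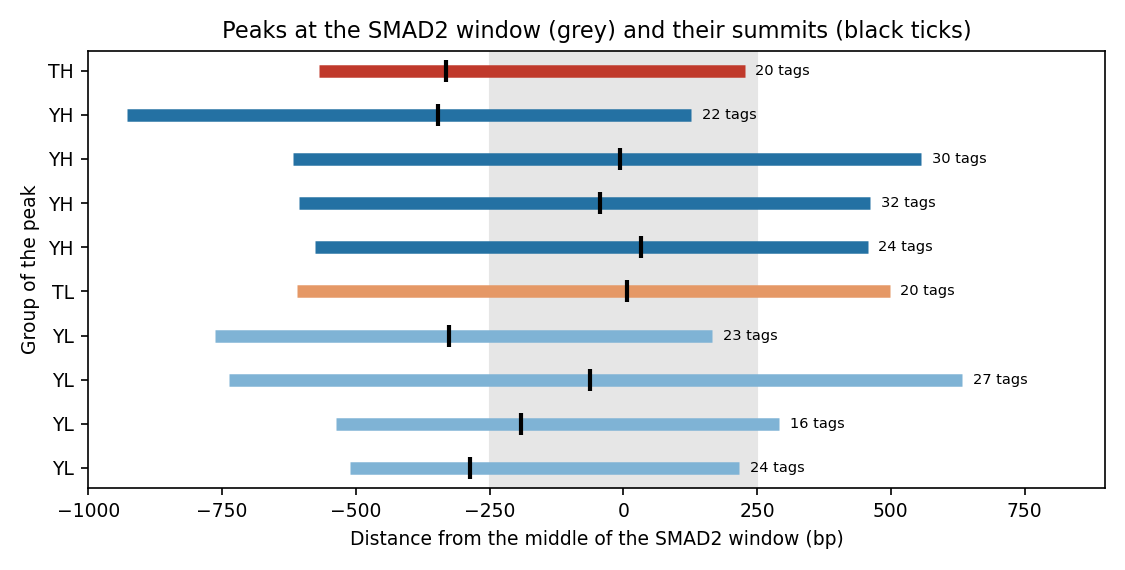
The 10 peaks at the SMAD2 window, with the distance from the middle of the window in bp on the x axis, a bar for each peak and a mark at its summit. All 10 peaks cover the same 638 bp, and their summits lie within 380 bp of each other.

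The 10 peaks shared a stretch of 638 bp, from 106962240 to 106962877, of which 377 bp lay inside the window. Their summits, the points of highest pileup, fell between 106962404 and 106962784. Of the summits, 4 lay before the window, the last of them at 106962463, and 6 lay inside it. The early summits came from YH, TH and 2 YL animals, and the later ones from 3 YH, 2 YL and the TL animal, so neither breed nor elevation had a summit position of its own.

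The study listed the window from TH and YH, so TL and YL were other animals than those behind the listing, although their values were known when the locus was taken up here. A peak was present in 1 of 4 TL and 4 of 4 YL animals, and this difference did not pass the two-sided Fisher's exact test (p = 0.143, adjusted p = 1 over 535616 windows of 500 bp with a peak in TL or YL). The smallest p that 4 against 4 animals can give is 0.0286, which needs 4 animals against 0. Without the single TL animal with a peak, 0 of 3 TL and 4 of 4 YL animals remained (exact p = 0.0286). Any split of 1 against 4 gives this p once that animal is left out, so it adds nothing about this window. With peaks of at least 20 tags the numbers were 1 and 3 (exact p = 0.486), and with a fold enrichment of at least 10 they were 0 and 1 (exact p = 1).

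Differences of this size between TL and YL were not rare in the genome. At least 3 more YL than TL animals had a peak in 4.9% of the 535616 windows and in 4.87% of the clusters with a peak in either group, against 1.19% of the clusters with at least 3 more TL animals. Among the 1696 clusters of the genome with 1 TH and 4 YH animals, as at SMAD2, 13.3% had at least 3 more animals in YL than in TL and 0.943% had at least 3 more in TL. More YL than TL animals had a peak in 57.3% of them, against 50.7% of all clusters with a peak in TL or YL. The numbers of the SMAD2 window, 1, 4, 1 and 4, recurred in 96 of these 1696 clusters, itself included.

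The breed difference did not extend to the neighbouring clusters. The split of 1 TH, 4 YH, 1 TL and 4 YL animals held over the 638 bp that all 10 peaks shared, and a split of at least 3 Yorkshire against at most 1 Tibetan animal at each elevation held over 754 bp, from 106962213 to 106962966. These widths are set by the lengths of the peaks, the shortest of which was 727 bp. The preceding 500 bp window, from 106962001, had the same numbers at its middle base as the SMAD2 window. The following window had 0 TH, 1 YH, 0 TL and 1 YL animals.

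No peak of any group lay in the 5167 bp before the cluster or in the 7969 bp after it, and the median gap between neighbouring clusters of the region was 4864.5 bp. On the nearest side before the gap were peaks of single TL and YL animals 7.5 and 6.5 kb from the window. The first cluster after the gap, 9.1 kb away, had 1 TH and 2 YL animals. None of these neighbours repeated the split.

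**Figure D3:**
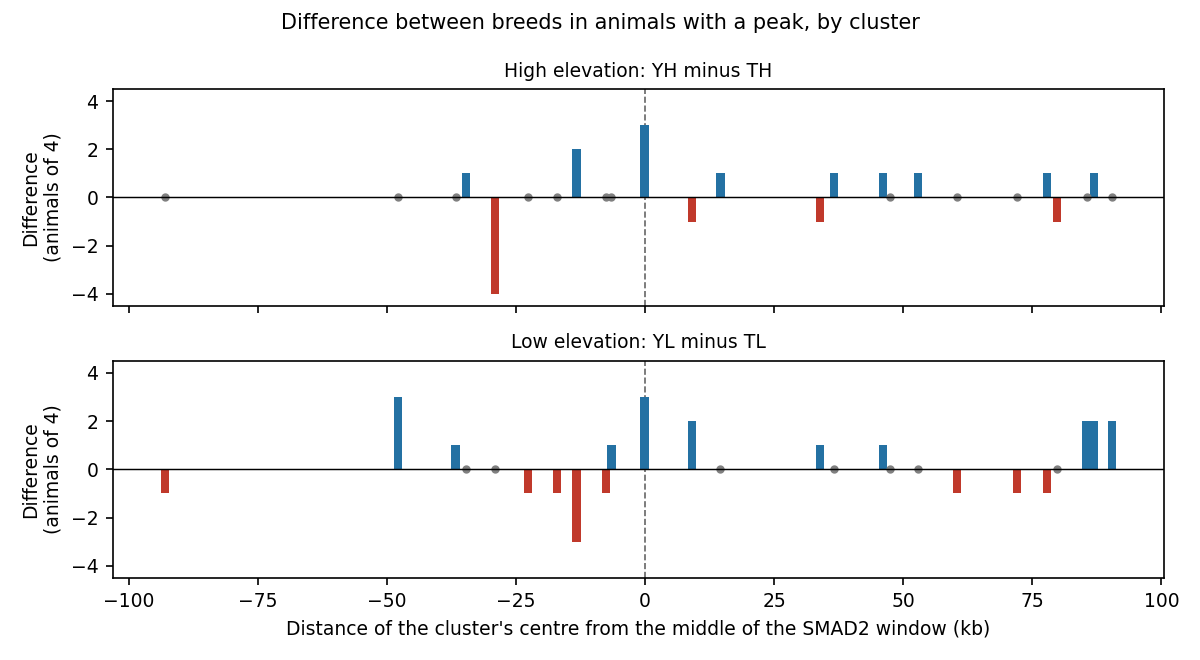
Number of Yorkshire minus number of Tibetan animals with a peak at each of the 25 clusters, at high elevation (YH minus TH) and at low elevation (YL minus TL), against the distance from the window in kb. The cluster of the window is at 3 in both comparisons, and at no other cluster is the difference 3 or more at both.

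The 95 peaks formed 25 clusters, of which 8 held 1 peak and 17 held 2 or more. Only 4 clusters had peaks in all 4 groups, namely that of the window and those 34.7 kb before and 33.9 and 36.6 kb after it. At 10 clusters the peaks came from 1 group only. Counted over the deepest base, the highest number of animals at a cluster was 10 of 16, reached at the window and at the cluster 33.9 kb after it. Peaks that touched the cluster 36.6 kb after the window, but did not all overlap, came from 1 TH, 3 YH, 3 TL and 3 YL animals. The cluster 33.9 kb after the window, from 106995874 to 106997412, had 3 TH, 2 YH, 2 TL and 3 YL animals and no breed difference in a fixed direction, with 20 to 32 tags and fold enrichments of 5.09 to 10.75. The same number of animals with a peak was thus divided by breed at the window and mixed over the groups 33.9 kb away.

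At high elevation 15 clusters had a peak in TH or YH, and these are described without a test. YH had more animals at 9 of them and TH at 4. Without the window's cluster, which was chosen for this difference, YH had more at 8 of 14 and TH at 4. Over the genome YH had more at 40.9% and TH at 39.3% of clusters. At least 3 more animals were found in YH at 1 cluster, that of the window, and in TH at 1 cluster. Over the genome these shares were 2.71% and 1.83%.

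The cluster in the opposite direction lay 29.0 kb before the window, from 106933017 to 106934439. All 4 TH animals had a peak there, with 30, 22, 16 and 18 tags and fold enrichments of 9.63, 5.95, 5.94 and 5.86, and 0 of 4 YH animals did. Over the genome, 4 animals against 0 in either direction were found at 0.517% of clusters in this comparison. At low elevation the breeds had equal numbers at this cluster, with TL peaks of 36 and 30 tags and YL peaks of 32 and 22 tags. Both YL peaks there came from the 2 YL animals with the most peaks on chromosomes 1 to 18 and X, if equal run numbers are the same animal. The difference of 4 animals between TH and YH thus stood beside a difference of 0 between TL and YL at this cluster, and the difference between these was not tested.

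At low elevation 23 clusters had a peak in TL or YL and were tested, and 0 of them had an exact p under 0.05 before adjustment by the two-sided Fisher's exact test, with a smallest p of 0.143. YL had more animals at 10 clusters and TL at 8, and they were equal at 5. Without the window's cluster YL had more at 9 and TL at 8, and they were equal at 5. Over the genome YL had more at 50.7% and TL at 29.4% of clusters. A difference of at least 3 animals was found at 3 clusters, 2 toward YL and 1 toward TL, against 4.87% and 1.19% of clusters over the genome. The window gave 1 of the 3, and with peaks of at least 20 tags 0 such clusters were left. Leaving out the YL animal of run 1, 2 or 3 left 1 such cluster, and leaving out that of run 4 left 2. The cut-off of 3 was kept with 3 YL animals left. The window, with 4 against 1, therefore dropped out whichever YL animal was left out, and 3 against 0 toward YL dropped out without any YL animal that had a peak.

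The second cluster toward YL lay 47.8 kb before the window, from 106914435 to 106915413. There 3 YL animals had peaks of 25, 20 and 12 tags against 0 TL animals, while TH and YH had 1 peak each, of 16 and 17 tags (TL against YL, exact p = 0.143). The cluster toward TL lay 13.3 kb before the window, from 106948870 to 106949944. There 3 TL animals had peaks of 16, 14 and 18 tags with fold enrichments of 12.36, 9.28 and 11.43, and 0 YL animals had one (exact p = 0.143). The exact p was 0.0286 without the YL animal that had no peak at the former cluster and 0.0286 without the TL animal that had none at the latter. Any split of 3 against 0 gives this p once the animal without a peak is left out, so it adds nothing about these clusters.

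At this last cluster 2 YH animals also had peaks, of 15 and 20 tags, and 0 TH animals did, so the breeds differed in opposite directions at high and low elevation. Over the 25 clusters, breed differences had the same sign at both elevations at 3 clusters, each with more Yorkshire animals, and opposite signs at 4. The other clusters had equal numbers in the breeds at 1 elevation or both.

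With all animals included, no elevation comparison within a breed passed a test at any cluster. At the window itself the numbers were equal, 1 and 1 in Tibetan and 4 and 4 in Yorkshire pigs. At the other clusters with a peak in TH or TL, 0 of 19 had an exact p under 0.05 before adjustment by the two-sided Fisher's exact test, with a smallest p of 0.143. TL had more animals than TH at 12 of the 19 and fewer at 6, against 36.1% and 43.4% over the genome. At 0 clusters did TH exceed TL by at least 3 animals, which it did at 1.9% over the genome.

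TL exceeded TH by 3 animals against 0 at 2 clusters, where a difference of at least 3 toward TL was found at 1.51% of clusters over the genome. These were the cluster 13.3 kb before the window and a cluster 77.9 kb after it, from 107040117 to 107041156. At the latter the 3 TL peaks held 23, 17 and 21 tags, with fold enrichments of 10.7, 9.24 and 9.79. In YL 2 animals and in YH 1 animal had a peak there. Each of the 2 differences between TH and TL had an exact p of 0.143, and of 0.0286 without the 1 TL animal that had no peak there. The latter p is fixed for any split of 3 against 0 and adds nothing about these clusters.

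In Yorkshire pigs 18 clusters other than the window had a peak in YH or YL, and 0 of them had an exact p under 0.05 before adjustment by the two-sided Fisher's exact test, with a smallest p of 0.429. YL had more animals at 11 and YH at 3, against 45.0% and 30.0% over the genome. A difference of at least 3 animals was found at 0 clusters of the region, against 2.44% toward YL and 0.884% toward YH over the genome. Adjusted p-values of clusters were taken over the 500 bp windows with a peak in either group. In all 3 comparisons tested, even 4 animals against 0 had an adjusted p of 1 there, so adjustment could not separate the clusters.

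**Figure D4:**
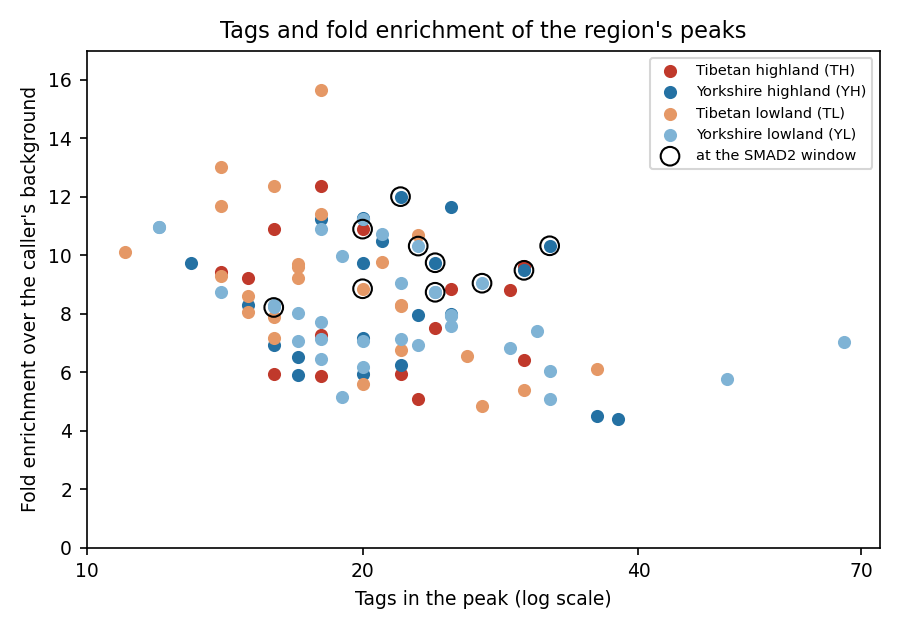
Tags per peak and fold enrichment per peak for the 95 peaks by group, with the 10 peaks of the window marked. The marked peaks lie inside the spread of the other peaks of their group, except that the YH peak with a fold enrichment of 12.01 is the highest of YH in the region.

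The peaks of the 200.5 kb held fewer tags than those of the lists as a whole. Median tags were 20 (TH), 20.5 (YH), 18 (TL) and 21 (YL), against list medians of 27, 29, 25 and 30. Median fold enrichments of the region were 8.82, 8.9, 8.86 and 7.93 in the same order, against 8.28, 7.29, 7.88 and 7.49 in the lists. The peak with the most tags, 67, belonged to a YL animal at the cluster 36.6 kb after the window, where 11 peaks of all groups covered 2545 bp from 106998059 to 107000603. That cluster held short peaks at its start and longer ones behind them, and the peak of 67 tags ran over both parts. Over its deepest base 2 YH animals had a peak, while YH peaks that touched it numbered 4. The numbers of animals there therefore depended on whether peaks were counted over the deepest base or wherever they touched the cluster, and these counts were equal at the window.

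Peaks around SMAD2 were fewest in TH and most numerous in YL. For TH, YH, TL and YL in this order, its density was 74.8, 110, 125 and 165 peaks per Mb, compared with 84.3, 87.1, 80.7 and 101 over chromosome 1. The share of its bases under a peak was 4.48%, 6.25%, 7.29% and 8.29%. Per 100000 peaks of the list the region held 5.34, 7.66, 9.65 and 9.94, so the order of the groups was kept on this scale and TL and YL lay close together. With peaks of at least 20 tags the order of YH and TL turned, since TH had 8 such peaks, TL 11, YH 16 and YL 20. All these values include the window, which was chosen for the difference between TH and YH. It held 1 TH, 4 YH, 1 TL and 4 YL peaks. The TH list gives no spread between animals, so the rank of TH was not tested.

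**Figure D5:**
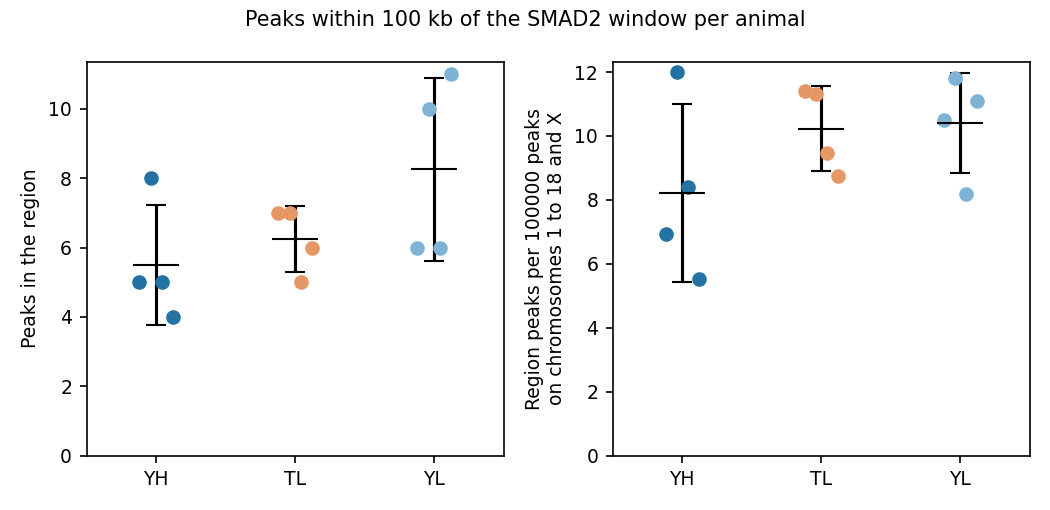
Peaks in the 200.5 kb for each of the 4 YH, 4 TL and 4 YL animals, as numbers and per 100000 peaks of the same run number on chromosomes 1 to 18 and X, with the mean and SD of each group. The numbers of the groups overlap in both panels, and TH is not shown because its list does not separate animals.

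The 4 TL animals had 7, 7, 5 and 6 peaks in the region and the 4 YL animals had 6, 10, 6 and 11. The means were 6.25 ± 0.957 and 8.25 ± 2.63 (SD, n = 4), and the difference was within the spread between animals (p = 0.343 by an exact permutation test of both tails, and 0.343 after adjustment over the 2 comparisons). The YH animals had 5, 8, 5 and 4 peaks, with a mean of 5.5 ± 1.73 (SD, n = 4), and their difference from YL was also within the spread (exact permutation p = 0.171, adjusted p = 0.342). The YL animals with 10 and 11 peaks also had the most peaks on chromosomes 1 to 18 and X, 84734 and 99381, against 57291 and 73159 in the other YL animals. These totals rest on equal run numbers being the same animal on every chromosome.

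Per 100000 peaks of each animal, the region held 11.4, 11.3, 9.46 and 8.75 peaks in the TL animals and 10.5, 11.8, 8.2 and 11.1 in the YL animals. This scale also takes equal run numbers as the same animal. TL and YL overlapped on this scale and their means differed by 0.172 (exact permutation p = 0.914, adjusted p = 0.914). YH had 8.21 ± 2.79 and YL 10.4 ± 1.56 (SD, n = 4), which also overlapped (exact permutation p = 0.286, adjusted p = 0.572). These 2 YL animals were the only source of YL peaks at the clusters 29.0 kb before and 9.1, 85.5 and 90.5 kb after the window, where both had a peak. At the clusters 36.7 and 6.5 kb before and 47.5 kb after it, the only YL peak came from 1 of the 2. The part of their total number of peaks in these clusters was not tested.

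The limits of the region fell between clusters. The first peak inside was a TL peak of 16 tags and fold enrichment 7.17, 6828 bp from the edge, and the last was a YL peak of 25 tags and fold enrichment 7.58, 9307 bp from the edge. Just outside lay a YH peak of 28 tags and fold enrichment 5.83, 1997 bp before the region, and a TL peak of 40 tags and fold enrichment 12.16, 2022 bp after it.

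Clusters with at least 3 more Yorkshire animals at both elevations were sparse along the genome. There were 728 of them among 242875 clusters (0.3%), and 125 with at least 3 more Tibetan animals at both. On chromosome 1 there were 66 of 24075 (0.274%), with a median spacing of 3087 kb. The next one after SMAD2 lay 2401 kb away, from 109364097 to 109365009, and had the same numbers of 1 TH, 4 YH, 1 TL and 4 YL animals. The next one before it lay 10140 kb away and had 0, 3, 0 and 3 animals.

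Of the study's DMR table, part of the windows of TH against YH and part of those of TL against YL were used here, and none of the elevation comparisons. In these rows 6 windows belonged to SMAD2, ENG and LEFTY2, 3 of 41 genes of a TGF-beta pathway list. Since the table was held only in part, the number does not say how often genes of the pathway were listed. The study had chosen these windows on the same animals, so they are not independent evidence of a direction. ENG, which encodes the TGF-beta co-receptor endoglin, had 1 TH, 0 YH, 0 TL and 1 YL animals at its intronic window on chromosome 1 from 302262501 to 302263000. Its other 2 windows, from 302235501 and from 302246501, had 0 animals in every group. LEFTY2, which encodes a secreted inhibitor of Nodal, had 0 TH, 2 YH, 0 TL and 2 YL animals at an intronic window on chromosome 10 from 15964501 to 15965000 and 0 animals at a window from 15966001. SMAD2 was thus the only one of the 3 with a peak in most animals of any group.

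Of 163 other genes with a window in the same rows, 4 came closest to the numbers at SMAD2, each differing by 1 animal in all over the 4 groups. SCCPDH, on chromosome 10 from 21665501 to 21666000, had 1 TH, 4 YH, 1 TL and 3 YL animals. CAMK1D, which encodes a calcium/calmodulin-dependent protein kinase, had 1, 4, 0 and 4 in the same order on chromosome 10 from 64960501 to 64961000. NPG3 also had 1, 4, 0 and 4, on chromosome 13 from 34214001 to 34214500. LOC780417 had 0, 4, 1 and 4 at neighbouring windows on chromosome 13 from 11761501 to 11762500. These windows were listed as introns, and the likeness was measured over 4 groups only, on windows that the study had chosen for a breed difference.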

How the data were processed

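For the MeDIP-seq libraries, FASTX served the authors for trimming, Bowtie for alignment to Sscrofa10.2 and MACS for peak calling. They deposited 1 peak list per group. Tags are a count for each peak, deposited without normalization, and the deposited fold enrichment is a ratio to the caller's background. Positions and lengths are in bp. The deposited lists hold no read depths, which were not analysed here, and 0 columns of samples were left unused. In 100907 TH rows the end of the peak came from the joint start and end field.

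Peaks of the 4 lists that overlapped by at least 1 bp were joined into clusters, and the animals of a group at a cluster were its peaks over the deepest base. At the window they were its peaks over base 250. Fisher's exact test was adjusted by Benjamini-Hochberg over all 500 bp windows with a peak in either group. Peaks per animal were compared by exact permutation tests. Reading the sorted runs of a list as animals was decided after the lists were seen. The run numbers pair no animals across groups. The counting and tests were checked on simulated data.

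The window, the members and the gene lists were chosen with earlier results of these data known. Named genes were SMAD2, the pathway genes with a listed window, at most 5 genes whose numbers were closest to SMAD2, and the neighbouring genes. Gene order came from RefSeq. Alternatives were peaks of at least 20 tags or a fold enrichment of at least 10, peaks within 500 bp joined, other overlaps with the window, a flank of 50 kb, another way of counting animals and leaving out each run. Tests used SciPy 1.17.1, tables pandas 2.3.3 and NumPy 2.4.6, and figures Matplotlib 3.10.9, under Python 3.11.15.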

Additional observations from a re-analysis of the deposited data

How the results depend on the processing

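With peaks of at least 20 tags the region held 8 peaks in TH, 11 in TL and 20 in YL, in place of 15, 25 and 33, and YH 16 in place of 22. Clusters with a difference of at least 3 animals between TL and YL numbered 3, and 0 with at least 20 tags or with a fold enrichment of at least 10. Of 87 alternative values, 73 were called the same, 13 moved and 1 became stronger. Counts close in size were called the same, such as 16 and 22 peaks in YH. A test was called the same if its direction and its side of 0.05 were kept. This held also where the difference between TL and YL at the window fell from 75 to 25 percentage points. Counts of 0 that stayed 0 were among the 73, so the number does not measure how firm the results are.

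Leaving out each run in turn, the difference between TL and YL at the window was between 66.7 and 100 percentage points (exact p between 0.0286, the smallest that 3 against 4 animals can give, and 0.143). Clusters with an exact p under 0.05 numbered 0 or 1 between TL and YL. The 1 was the window without the TL animal that had a peak, the cluster 13.3 kb before it without the TL animal that had none, or the cluster 47.8 kb before it without the YL animal that had none. Between TH and TL they numbered 0 or 1 as TL animals were left out, the 1 being the cluster 13.3 kb before or 77.9 kb after the window without the TL animal that had no peak there. They numbered 0 between YH and YL. Each 1 came from leaving out the only animal of its group unlike the others, which always gives an exact p of 0.0286 for such numbers. Clusters with a difference of at least 3 between TL and YL numbered 1 to 3, with the cut-off of 3 kept where 3 animals were left. The difference in peaks per animal was between 1.08 and 2.75 for TL and YL and between 1.83 and 3.58 for YH and YL. TH animals could not be left out, because the TH list gave no runs. No paired analysis was possible because the lists name no animals and carry no replicate numbers.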
